A study of Drosophila melanogaster with 4 samples.

Results

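RPD3-enriched regions on chromosome 4, on the 6 sequences named as heterochromatin (2LHet, 2RHet, 3LHet, 3RHet, XHet and YHet) and on U were described in Oregon-R wild-type Drosophila embryos of 14 to 16 h. A region was taken when its list marked it as enriched and placed it on 1 of these 8 sequences. This gave 259 of the 7041 regions of ChIP replicate 1 (3.68%), 241 of the 7654 regions of ChIP replicate 2 (3.15%), and 1254 of the 19364 regions of the list that belongs to no single sample (6.48%), here named the combined list. The 8 sequences make up 14.8% of the assembled sequence without Uextra, a further set of unplaced sequence that held 0 regions. No region marked as depleted lay on them, but all 3 lists together held only 2 such regions.

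The 2 ChIP libraries were made with the antibody named Q3451 against RPD3. The 2 input libraries, DNA without immunoprecipitation, came from embryos of the same strain and age, and the labels pair 1 of them with each replicate list. No values of the inputs themselves were analysed here. All libraries were from whole embryos fixed with formaldehyde, and the labels give neither the sex of the embryos nor whether the replicates were separate collections. The spread between replicates, given as an SD over n = 2, may therefore be technical only. For every region the lists give its position and 1 score, a log2 ratio taken as ChIP over input. They give no read numbers, so the depth of the libraries was unknown.

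RPD3 is a histone deacetylase, the fly orthologue of mammalian HDAC1 and HDAC2, and works within co-repressor complexes such as those of Sin3A and Mi-2. Pericentric heterochromatin is rich in satellite repeats and transposons, is poor in genes, and carries histone H3 methylated at lysine 9 with the protein HP1a. Mutations of the Rpd3 gene are known to modify position-effect variegation, the silencing of genes placed next to heterochromatin. Chromosome 4, the dot chromosome, has active genes interspersed with repeats and is bound by HP1a and by the protein POF. The Het sequences are assembled parts of the heterochromatin assigned to a chromosome, YHet coming from the Y, which males alone carry. U joins scaffolds that had no assigned place, so neighbours on U need not be neighbours in the genome.

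In each replicate all 8 sequences had fewer regions per Mb than the autosomal arms together. XHet came nearest to them, with few regions, and was not tested by itself against the arms. Chromosome 4, of 1.35 Mb, had 14 regions in replicate 1 and 18 in replicate 2, or 11.8 ± 2.09 per Mb (SD, n = 2), which covered 2.13% ± 0.21 of it (SD, n = 2). The 6 Het sequences together, of 9.28 Mb, had 140 and 117 regions, or 13.8 ± 1.75 per Mb (SD, n = 2), and 2.35% ± 0.33 of their length was covered (SD, n = 2). U, of 10.0 Mb, had 105 and 106 regions, or 10.5 ± 0.07 per Mb (SD, n = 2), over 1.93% ± 0.05 of its length (SD, n = 2). The autosomal arms 2L, 2R, 3L and 3R had 60.2 ± 3.39 regions per Mb (SD, n = 2) and were covered over 14.0% ± 1.40 of their length (SD, n = 2). These densities use the lengths in the file headers, which count any gaps in the assembly. How much of each sequence reads could be placed on was not analysed here.

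The density of chromosome 4 was 0.179 times that of the autosomal arms in replicate 1 (95% interval 0.098 to 0.301, adjusted p = 3.3e-18) and 0.213 times in replicate 2 (0.126 to 0.337, adjusted p = 9.8e-18), by a two-sided exact binomial test of region counts. By the same exact test the 6 Het sequences had 0.261 times the density of the arms in replicate 1 (0.219 to 0.309, adjusted p = 5.9e-86) and 0.201 times in replicate 2 (0.166 to 0.242, adjusted p = 8.2e-114). U had 0.181 times the density of the arms in replicate 1 (0.148 to 0.219, exact test, adjusted p = 2.3e-121) and 0.169 times in replicate 2 (0.138 to 0.204, adjusted p = 1.6e-136). Between chromosome 4 and the 6 Het sequences no difference was shown. The ratio of chromosome 4 to them was 0.687 in replicate 1 (95% interval 0.366 to 1.19, exact test, adjusted p = 0.24) and 1.06 in replicate 2 (0.605 to 1.74, adjusted p = 0.8). These intervals still hold a density on chromosome 4 well below or above that of the Het sequences. The tests treat the regions of a list as independent, which neighbouring regions are not, and describe these libraries only.

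**Figure D1:**
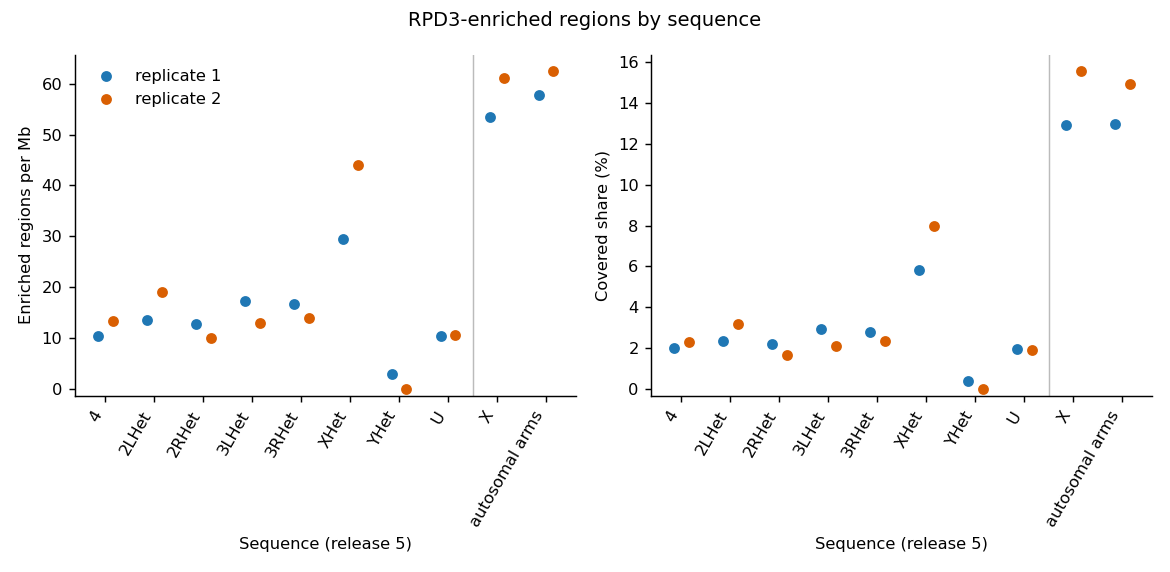
Enriched regions per Mb (left) and covered share of each sequence in percent (right), with 1 point for each replicate list. The 8 sequences stand left of the grey line, and X and the 4 autosomal arms together stand right of it. Chromosome 4, U and 4 of the Het sequences lie between 10.0 and 19.0 regions per Mb, XHet is higher, and YHet is at or near 0.

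Density varied among the Het sequences, with no test between them. XHet, the shortest at 0.204 Mb, had 6 regions in replicate 1 and 9 in replicate 2, or 36.7 ± 10.4 per Mb (SD, n = 2), and 6.92% ± 1.53 of it was covered (SD, n = 2). It was the densest of the 8 sequences in each replicate, at 29.4 and 44.1 per Mb, and in each it lay below the X arm, at 53.5 and 61.0 per Mb. Arm 2L, the sparsest autosomal arm, had 46.8 and 50.8 per Mb. 2LHet, of 0.369 Mb, had 5 and 7 regions, or 16.3 ± 3.83 per Mb (SD, n = 2). 3RHet had 42 and 35 regions, or 15.3 ± 1.97 per Mb (SD, n = 2), 3LHet had 44 and 33, or 15.1 ± 3.04 per Mb (SD, n = 2), and 2RHet had 42 and 33, or 11.4 ± 1.94 per Mb (SD, n = 2). The order of 2LHet, 3RHet and 3LHet is not resolved, since their means lie within 1 SD of each other.

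YHet, of 0.347 Mb, had a single region in replicate 1 and 0 in replicate 2. The single region lay from 85890 to 87294 (1405 bp) and had a score of 3.45, at the percentile rank 99.9 of that list. Replicate 2 had nothing at that place. A count of 0 over YHet still allows a density of up to about 8.64 per Mb. This takes 3 regions as an approximate one-sided 95% limit, and it is not an exact interval. The combined list held 5 regions on YHet, with scores from 0.97 to 1.53, and none of the 5 overlapped a region of either replicate. No place on YHet was listed by both replicates.

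Chromosome 4 had a small number of places that both replicates listed. Of its regions, 10 of 14 in replicate 1 (71.4%) and 10 of 18 in replicate 2 (55.6%) shared 1 bp or more with a region in the other replicate's list. Over the whole lists this share was 72.7% for replicate 1 and 64.6% for replicate 2, so chromosome 4 was near the background of its lists. The 10 regions of each list formed 10 pairs, and their midpoints lay a median of 114 bp apart.

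In order along the sequence, the first pair scored 0.79 in replicate 1 (165731 to 167359) and 0.83 in replicate 2 (165668 to 167547). The second scored 1.08 in replicate 1 (340674 to 342542) and 1.39 in replicate 2 (340677 to 342595). It had the highest mean rank of the 10, with percentile ranks of 87.2 and 97.2 in their lists. Near the middle of the sequence the pairs were weaker. Replicate 1 had regions from 527223 to 528967 (score 0.68), from 577640 to 579082 (0.34) and from 724242 to 726012 (0.63), and replicate 2 had partners there with scores of 0.66, 0.34 and 0.50. The pair at 577640 stood among the lowest scores of either list, at the percentile ranks 0.28 and 0.42. The pair after these was also low, scoring 0.43 in replicate 1 (1050303 to 1051981) and 0.40 in replicate 2 (1050250 to 1051987).

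The other 4 pairs lay in the last 100 kb, the end of the sequence that lies toward the telomere. They lay in replicate 1 from 1285600 to 1288707 (score 1.22), 1298262 to 1300184 (0.55), 1320231 to 1323193 (0.74) and 1339219 to 1341427 (1.23). The partners in replicate 2 scored 1.12, 0.53, 0.75 and 1.01. The first of the 4 was the widest region of chromosome 4 in replicate 1, at 3108 bp, and the third the widest in replicate 2, from 1320798 to 1323309 (2512 bp). The highest score on chromosome 4 was in neither case shared: in replicate 1 it was 1.36, from 1346405 to 1348245, and in replicate 2 it was 1.52, from 1333605 to 1335022. Both of these regions also lay in the last 100 kb. No gene is named for any place here, because the gene table used was of release 6 and the lists are of release 5.

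Regions were unevenly spread along chromosome 4. The last 100 kb held 6 of its 14 regions in replicate 1 and 7 of its 18 in replicate 2, or 60 and 70 per Mb. The rest of the sequence had 8 and 11 regions, or 6.39 and 8.79 per Mb. For comparison, a window of 100 kb on the autosomal arms held a median of 5 regions in replicate 1 (quartiles 3 and 8) and 6 in replicate 2 (quartiles 3 and 9). The last 100 kb of chromosome 4 therefore had about as many regions as an ordinary stretch of an arm. In the combined list it held 20 of 64 regions, which covered 39.2% of it, against 5.42% of the rest of the sequence, and the arms were covered over 33.6%. This window was chosen after the positions had been seen and carries no test. Leaving out a dense stretch can only lower the density of the rest. Without it, the density of chromosome 4 was 0.126 times that of the autosomal arms (mean of the replicates), and 0.196 times with it. Relative to the Het sequences the ratio was 0.56 without it and 0.871 with it. The longest stretch of chromosome 4 without a region was 244 kb in replicate 1 and 234 kb in replicate 2.

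**Figure D2:**
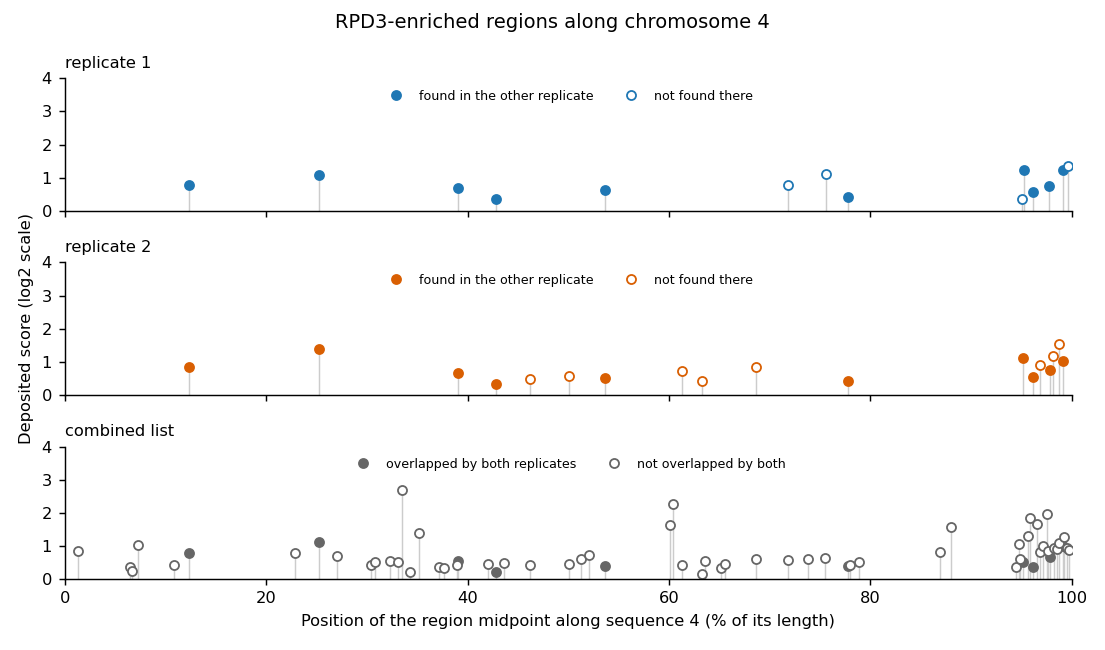
Regions along chromosome 4 in replicate 1, replicate 2 and the combined list, with the position of the midpoint as a percent of the sequence length and the deposited score on a log2 scale. Filled points were found in the other replicate or, for the combined list, were overlapped by both replicates. In all 3 lists the regions crowd at the right end, which holds 6 of 14, 7 of 18 and 20 of 64 of them.

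The median score of chromosome 4 was lower than those of the Het sequences and of U in each replicate. The median score on chromosome 4 was 0.76 in replicate 1 and 0.73 in replicate 2, on the 6 Het sequences 1.03 and 0.95, and on U 1.35 and 1.39. The autosomal arms had 0.78 and 0.77, and the X arm 0.96 and 0.93. Chromosome 4 thus lay near the level of the autosomal arms, and below the Het sequences by 0.27 in replicate 1 and 0.22 in replicate 2, a mean difference of -0.25 ± 0.03 (SD, n = 2). The Het sequences exceeded the autosomal arms by 0.22 ± 0.05 (SD, n = 2) and U exceeded them by 0.60 ± 0.04 (SD, n = 2). These are differences of medians with no test, since regions of a list are not replicates.

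The median of chromosome 4 hides a wide spread. In replicate 1, 4 of its 14 regions lay in the bottom 10% of the list's scores and 3 in the top 10%. In replicate 2, 7 of its 18 regions were in the bottom 10% and 3 in the top 10%. On the 6 Het sequences, 4 of 140 regions lay in the bottom 10% and 55 in the top 10% in replicate 1, and 5 and 35 of 117 did so in replicate 2. U was shifted further still: 70 of its 105 regions in replicate 1 and 67 of its 106 in replicate 2 were in the top 10%. By construction a whole list has 10% of its regions in each of these classes. The autosomal arms had 5.82% and 6.55% of theirs in the top 10%. The X arm had 21.0% and 19.4% in the top 10%, against 39.3% and 29.9% on the Het sequences. In the bottom 10% it had 3.75% and 4.17%, close to the Het sequences at 2.86% and 4.27%, so their few low scores were shared with X.

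Among the Het sequences the medians in replicates 1 and 2 were 1.39 and 1.04 on XHet, 1.27 and 0.95 on 2LHet, 1.05 and 0.90 on 2RHet, 1.04 and 1.00 on 3LHet, and 0.94 and 0.91 on 3RHet. Each of the 5 was above the median of the autosomal arms in each replicate. Against the X arm, 3RHet was lower in replicate 1 and both 2RHet and 3RHet were lower in replicate 2. Their order was not the same in the replicates: 2LHet was above 3LHet in replicate 1 and below it in replicate 2. The 20 highest scores of each list, with ties of the last of them kept, were 21 regions in replicate 1 and 22 in replicate 2, of which 20 and 17 were on the 8 sequences. Chromosome 4 held 0 in each, the 6 Het sequences held 2 and 4, and U held 18 and 13. Of all regions in the 2 lists, chromosome 4 had 0.20% and 0.24%, the Het sequences 1.99% and 1.53%, and U 1.49% and 1.38%. With so small a share, the count of 0 on chromosome 4 says little.

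Deposited scores repeated between regions. The share of regions whose score was also that of another region of the same list was 57.1% in replicate 1 and 72.2% in replicate 2 on chromosome 4, 65.7% and 69.2% on the Het sequences, and 61.9% and 57.5% on U. On the autosomal arms it was 60.1% and 54.6%. The read numbers behind a score were not analysed here, and their part in the high scores of U and the Het sequences was not tested. The median width was 1679 bp ± 167 on chromosome 4, 1606 bp ± 14.1 on the Het sequences and 1703 bp ± 24.4 on U, and 1895 bp ± 56.2 on the arms (SD, n = 2 each). XHet had a mean of 1907 bp ± 241 (SD, n = 2), over 6 and 9 regions. It was wider than the arms in replicate 1 (2077.5 against 1855.5 bp) and narrower in replicate 2 (1737 against 1935 bp). The widest region on any of the 8 was on U, from 6046446 to 6051633 (5188 bp, score 1.36) in replicate 1, and the widest in replicate 2 overlapped it, from 6046608 to 6051329 (4722 bp, score 1.08).

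**Figure D3:**
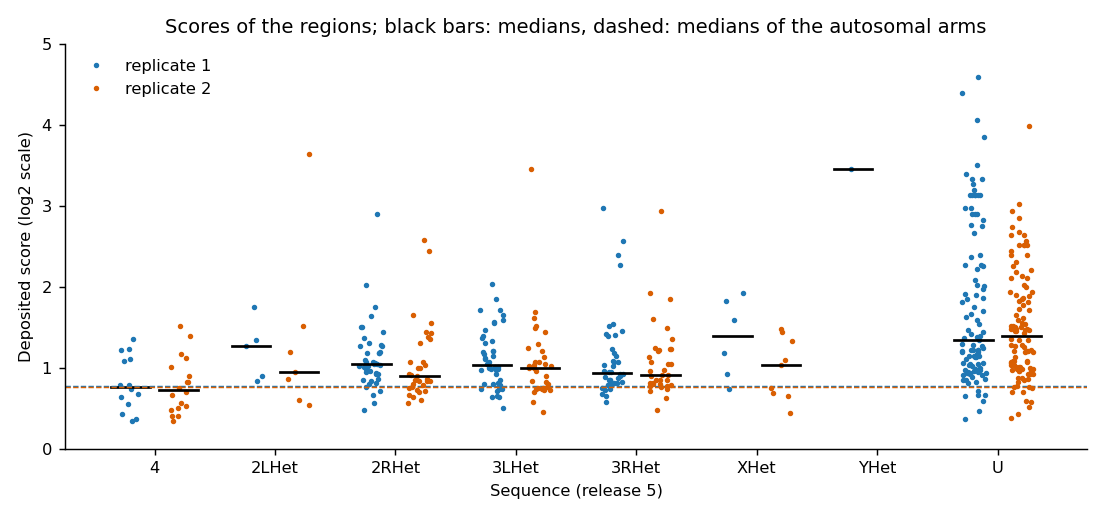
Score of every region on the 8 sequences in replicate 1 and replicate 2, on a log2 scale, with black bars at the median of each sequence and dashed lines at the medians of the autosomal arms. The medians of chromosome 4 lie close to the dashed lines, at 0.76 and 0.73, while those of the Het sequences and of U lie above them. Single scores on U reach 4.59.

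Regions on the Het sequences recurred less often than regions of the arms. In replicate 1, 41 of 140 (29.3%) were found in replicate 2, against 73.2% on the autosomal arms (two-sided Fisher's exact test, adjusted p = 5.8e-26). In replicate 2, 40 of 117 (34.2%) were found in replicate 1, against 65.3% on the arms (Fisher's exact test, adjusted p = 2.4e-11). On U the shares were 44.8% (47 of 105) and 44.3% (47 of 106), also below the arms, with differences of -28.4 and -21.0 percentage points (Fisher's exact test, adjusted p = 2.1e-09 and 1.8e-05). The 2 tests of each comparison count the same overlapping pairs from either side, so neither is an independent check of the other. They also treat the regions of a list as independent. The part of a sequence that the other list covers was smaller here too. This part is the chance for a single point. Overlap by position alone would be higher for whole regions, since 1 bp is enough. The other replicate covered 2.11% of the Het sequences for the regions of replicate 1 and 2.58% for those of replicate 2, and on the arms 14.9% and 13.0%.

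Chromosome 4 recurred more often than the Het sequences in replicate 1, by 42.1 percentage points (Fisher's exact test, adjusted p = 0.0032). In replicate 2 the difference was 21.4 percentage points and missed the threshold (Fisher's exact test, adjusted p = 0.13), so the call was not made in both lists. The other list covered 2.28% and 1.99% of chromosome 4, close to its cover of the Het sequences.

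Recurrence varied among the Het sequences, with no test between them. On 3RHet, 8 of 42 regions in replicate 1 (19.0%) and 8 of 35 in replicate 2 (22.9%) were found in the other list. On 2RHet it was 9 of 42 (21.4%) and 9 of 33 (27.3%). 3LHet stood above these, with 18 of 44 (40.9%) and 17 of 33 (51.5%). Both shares of a sequence rest on the same overlapping pairs, set against the 2 list sizes. They are not separate measurements, so no SD is given for them. XHet had 5 of 6 and 5 of 9, and 2LHet 1 of 5 and 1 of 7. With so few regions the exact 95% intervals are wide, from 35.9% to 99.6% for XHet and from 0.51% to 71.6% for 2LHet in replicate 1. They cover the counting of regions only.

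**Figure D4:**
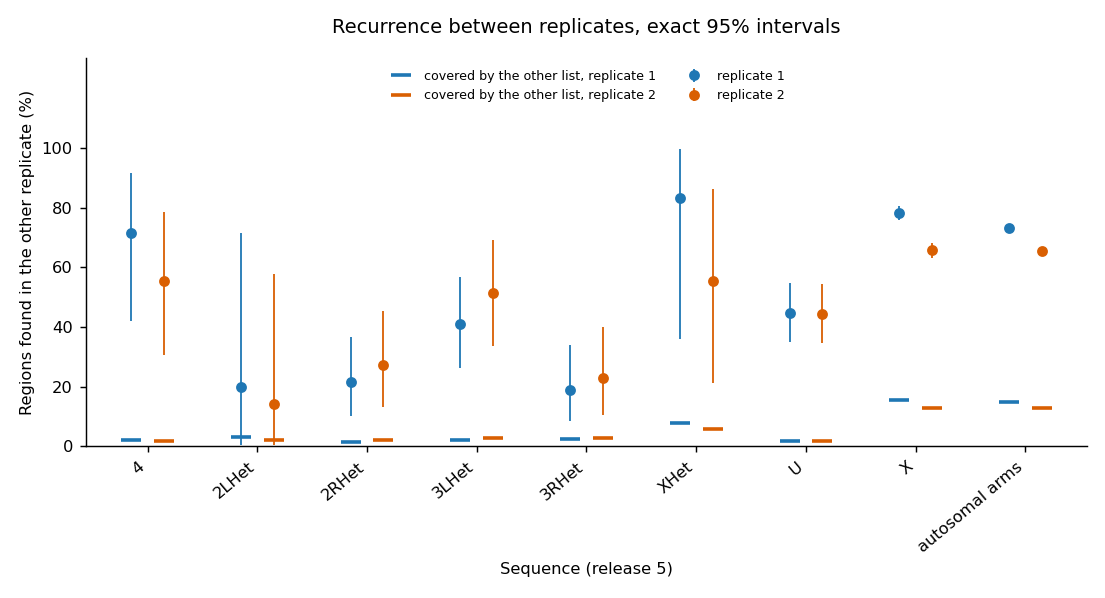
Share of the regions of each replicate that were found in the other replicate, in percent, with exact (Clopper-Pearson) 95% intervals, and, as short bars, the share of the sequence covered by the other replicate's list. YHet is left out, since replicate 2 had 0 regions there. The points of 2RHet and 3RHet lie between 19.0% and 27.3%, and those of the autosomal arms at 73.2% and 65.3%.

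Among regions of the Het sequences and of U, those with high scores were found again no more often than the others, while on the arms they were found again more often. On the 6 Het sequences, the regions in the top 10% of the list's scores were found in the other replicate in 16 of 55 cases in replicate 1 (29.1%) and 10 of 35 in replicate 2 (28.6%). The Het regions below the top 10% recurred in 29.4% and 36.6% of cases. On U the top 10% recurred in 41.4% and 40.3% of cases, and the lower regions in 51.4% and 51.3%. On the autosomal arms the top 10% recurred in 93.2% of cases in each replicate, and the lower regions in 71.9% and 63.4%. The split was made after the lists had been examined and was not tested. The highest score of U in replicate 1, 4.59 from 3741540 to 3745262, and that in replicate 2, 3.98 from 8412886 to 8415308, are examples named after their values were seen. Neither was found in the other replicate, although each was the highest score of its whole list.

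Where a place recurred, the scores of the replicates were closest on chromosome 4 by their median difference, over only 10 pairs. Over the 10 pairs of chromosome 4 the median absolute difference between the scores of replicates 2 and 1 was 0.03, over the 41 pairs of the Het sequences 0.15, and over the 47 pairs of U 0.12. The autosomal arms had 0.10 over 4262 pairs. The pairs of chromosome 4 with the highest mean scores, 1.23, 1.17 and 1.12, differed by 0.31, -0.10 and -0.22. Its other pairs scored lower and differed by 0.13 at most in either direction. The part of the score level in these differences was not tested. The SD of the differences was 0.14 on chromosome 4, 0.24 on the Het sequences and 0.39 on U, and 0.16 on the arms. Single pairs of U differed by as much as -1.49, and 1 pair of 3LHet by -0.84, both named after their values were seen. Across pairs, the Spearman correlation between replicates was 0.94 on chromosome 4, 0.73 on the Het sequences and 0.94 on U, and Pearson's was 0.91, 0.78 and 0.88. On the autosomal arms they were lower, at 0.64 (Spearman) and 0.69 (Pearson). The part of the range of scores in these values was not tested. These correlations are across regions of the same pair of libraries and describe them only. On the Het sequences replicate 2 had the lower score in 28 of 41 pairs, with a median difference of -0.12, while on U it was lower in 23 of 47. Over the whole lists it was lower in 2438 of 5359 pairs, with a median difference of 0.02, so U was near that background. These shares were not tested.

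The highest-ranked pair of each sequence was chosen by its mean rank in the replicates. On XHet it scored 1.92 in replicate 1 (106300 to 108442) and 1.49 in replicate 2 (106835 to 108571), and both regions had the highest score of XHet in their list. All 5 pairs of XHet lay between 60651 and 108571. On 2RHet the pair lay from 1484003 to 1485444 and from 1484808 to 1487133, and scored 1.75 and 1.56. On 3LHet it was placed from 2493450 to 2494810 and from 2493434 to 2494760, with scores of 1.72 and 1.69, near the end of that sequence. 3RHet had its first pair from 645669 to 647911 and from 646153 to 647658, with scores of 1.45 and 1.35. The single pair of 2LHet, from 314387 to 316831 and from 314929 to 316360, scored 1.35 and 0.95. The pair of U scored 4.06 in replicate 1 (5146948 to 5149377) and 2.75 in replicate 2 (5146559 to 5148506), the highest of these 6 pairs. Each of these 6 pairs scored higher in replicate 1, as did 2438 of the 5359 pairs of the whole lists.

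The widest regions of the Het sequences other than YHet were between 1969 and 3320 bp. On 2RHet they were 3320 bp (from 158330 to 161649) in replicate 1 and 2538 bp (from 150046 to 152583) in replicate 2, and on 3RHet 3188 bp (from 745146 to 748333) and 2883 bp (from 1667745 to 1670627). On 3LHet they were 2875 bp (from 501583 to 504457) and 2366 bp (from 708238 to 710603). XHet reached 2247 bp (from 88662 to 90908) and 2618 bp (from 159005 to 161622), and 2LHet 2445 bp (from 314387 to 316831) and 1969 bp (from 257439 to 259407). On the autosomal arms the widest were 14038 bp and 15349 bp, so no domain of that size was listed on the Het sequences or on chromosome 4. The arms had 5582 and 6045 regions, and a widest value grows with the number of regions.

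**Figure D5:**
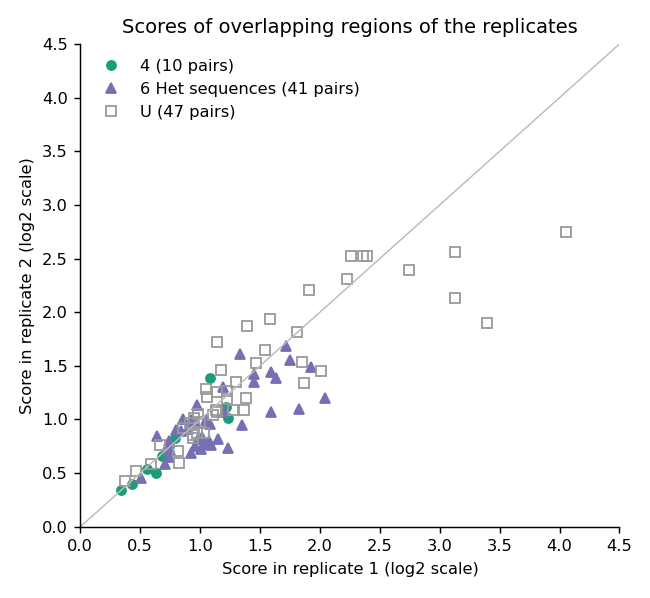
Scores of overlapping regions in replicate 1 (x axis) and replicate 2 (y axis), on a log2 scale, for 10 pairs on chromosome 4, 41 on the Het sequences and 47 on U, with the line of equal scores. The pairs of chromosome 4 lie closest to the line, with a median absolute difference of 0.03. The pairs with the highest scores belong to U.

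The combined list held more regions on these sequences than the replicate lists did. It had 64 regions on chromosome 4 (47.3 per Mb, 7.92% of the sequence), 672 on the 6 Het sequences (72.4 per Mb, 12.4%) and 518 on U (51.5 per Mb, 9.08%), and 155.6 per Mb on the autosomal arms. Relative to the arms these are ratios of 0.304, 0.465 and 0.331, each higher than the mean of the replicate lists (0.196, 0.231 and 0.175). In this list the density of chromosome 4 was 0.654 times that of the Het sequences (two-sided exact binomial test, adjusted p = 0.00085), a call that the replicate lists did not give. Regions overlapped by a region of each replicate were 10 of 64 on chromosome 4 (15.6%), 43 of 672 on the Het sequences (6.40%) and 47 of 518 on U (9.07%). Over the whole combined list that share was 23.1%. The sources used here do not state how the combined list was made, and it may hold the same reads as the replicate lists.

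Combined-list regions with no region of either replicate were 42 of 64 on chromosome 4 (65.6%), 462 of 672 on the Het sequences (68.8%) and 365 of 518 on U (70.5%). They were 55.2% of the whole combined list and 54.4% on the autosomal arms, so such regions were in the majority there too. These shares were not tested against each other. On chromosome 4 their median score was 0.60, against 0.52 for the 10 that both replicates overlapped, and on U it was 1.35 against 1.11. On the Het sequences the medians were 0.75 and 0.74, and on the autosomal arms they were 0.49 and 0.66. Regions with no replicate region were narrower than those with both, on the arms as well. Their median widths were 1272 bp on chromosome 4, 1272 bp on the Het sequences, 1288 bp on U and 1271 bp on the autosomal arms, against 2101, 2675, 2750 and 3428 bp for those with both replicates. The narrowest regions of this list were 1001 bp wide. Chromosome 4 had 5 such regions, with a median score of 1.83 and a highest score of 2.68, the Het sequences had 32, with a median of 1.39, and U had 35, with a median of 1.99. None of these narrowest regions on the 8 sequences was overlapped by a replicate region. On the autosomal arms, 4 of the 216 such regions were, and the median score of the 216 was 0.53. On the X arm 0 of 63 were, with a median score of 0.65, so the lack of overlap was not particular to the 8 sequences. Regions of this width were looked at after the list had been seen.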

How the data were processed

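The lists of enriched regions were used as the authors deposited them: 1 for each of the 2 ChIP replicates and 1 for the series. Reads were aligned with Bowtie 0.12.7, per the submitters' processing notes, and coordinates are of FlyBase release 5, counted from 1, per the file headers. Not given in the sources used here are the region caller, its thresholds, how reads that map to several places were treated, and how the combined list was made. These choices bear directly on repeat-rich sequences. The deposited score was taken as log2 of a ratio: relative to the commonest score of a list, at least 99.2% of scores were log2 of a ratio of whole numbers (denominator up to 2000, relative tolerance 1e-10), and at most 1.52% were so with base e or 10. Its terms, ChIP and input, were inferred from the labels. 0 columns belonged to other samples.

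Groups and replicate numbers came from the sample titles. Densities used header lengths, and a region of 1 replicate was found in the other where at least 1 bp overlapped. Region counts were compared by the exact conditional binomial test and shares by Fisher's exact test, two-sided, in each replicate list, with Benjamini-Hochberg adjustment over 14 tests (7 comparisons in 2 lists). A comparison was called where adjusted p was under 0.05 in both lists. For the shares, both lists count the same overlaps, so the 2 tests are not independent checks. Intervals are exact and cover 95%. The tests were tried on simulated counts. These were drawn as independent, so they could not show the effect of clustered regions or of overlaps shared by both lists. Regions named were, on chromosome 4, every pair found in both replicates and the highest score of each, and, elsewhere, the pair with the highest mean percent rank and the widest region of each replicate. Sequences, comparisons and regions were chosen with earlier results of these data known. No gene, sequence or repeat annotation of release 5 was used here, so none is reported. Tests ran in scipy 1.17.1 and statsmodels 0.14.6, tables in pandas 2.3.3 and numpy 2.4.6, under Python 3.11.15, and plots in matplotlib 3.10.9.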

Additional observations from a re-analysis of the deposited data

How the results depend on the processing

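The low densities of chromosome 4, the Het sequences and U relative to the autosomal arms, and the lower recurrence of the Het sequences and of U, kept their direction and their call under every alternative with a test. Covered shares in place of counts gave ratios to the arms of 0.153 for chromosome 4, 0.17 for the Het sequences and 0.139 for U. The ratio of chromosome 4 to the Het sequences, 0.871 with no call, was the least stable: 0.654 with a call in the combined list, 1.6 with no call (exact binomial test, adjusted p = 0.21) over combined-list regions overlapped by both replicates, and 0.687 to 1.06 on a single replicate. Its recurrence exceeded that of the Het sequences by 31.8 percentage points with no call, by 39.2 with a call (Fisher's exact test, adjusted p = 0.029) where regions had to overlap by 50% of each, and by 21.4 to 42.1 on a single replicate. In the combined list the score difference was -0.135 between chromosome 4 and the Het sequences and 0.682 between U and the arms. Among regions found in both replicates these were -0.277 and 0.435, and for U it was 0.718 in regions up to the median width. The cause of these shifts was not tested. In regions scoring at or above the median of their list the ratios to the arms were 0.183, 0.409 and 0.37. Of all alternative values, 2 reversed direction, both of the density of chromosome 4 over the Het sequences, and 3 gained a call. A further 8, all without a test, moved by more than 1 SD. The other 52 kept their direction and any call, but values with a test were not held to the 1 SD limit. Ratios to the arms in the combined list were 0.304 for chromosome 4, 0.465 for the Het sequences and 0.331 for U. The replicate lists gave 0.196 ± 0.024, 0.231 ± 0.042 and 0.175 ± 0.0087 (SD, n = 2 each). The window at the end of chromosome 4 was an alternative added after the data were seen. No paired analysis was possible because the inputs had no values here. Unknown depth and few regions limit XHet, 2LHet and YHet.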
